A study of Mus musculus with 12 samples.

Results

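MHC class I molecules carry short peptides from inside the cell to its surface. Here their genes and those that load them are described as 9 of the 24100 genes counted: the heavy chain genes H2-K1, H2-D1 and H2-T23, the light chain gene B2m, the transporter genes Tap1 and Tap2, the loading factor gene Tapbp, the trimming enzyme gene Erap1 and the transactivator gene Nlrc5. They were chosen as named parts of this pathway. All 9 had counts in 12 of 12 libraries, and all passed the filter on low counts.

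A class I molecule is a heavy chain bound to β2-microglobulin and to a peptide. Peptides cut by the proteasome are pumped into the endoplasmic reticulum by the TAP transporter, trimmed by the aminopeptidase ERAP1 and loaded with the help of tapasin. Cells outside the immune system carry modest amounts, and interferons raise transcription of the whole set through IRF1 and through NLRC5, a coactivator that acts at class I promoters. In fibroblasts the genes are known as part of the response to type I and type II interferon.

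The study compared RTF2-deficient with wild-type (WT) mouse embryonic fibroblasts (MEFs) to ask how transcription changes without RTF2, a replisome protein. WT MEFs were Rtf2+/+ and RTF2-deficient MEFs were Rtf2-/lox, with 1 null and 1 floxed allele. All groups, WT included, received Cre by retrovirus 72 hrs before harvest. Line 1 and line 2 each paired both genotypes as littermates from a mother of its own, which gives 4 groups of 3 libraries. The null allele came from a cross to mice with Cre under the ubiquitous EIIa promoter, and the MEFs came from mid-gestation embryos and had been immortalized with SV40 large T, which a retrovirus delivered. The 3 libraries of a group are technical replicates in the study's description, so p-values measure the spread between libraries and not that between embryos.

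Totals lay between 39360167 and 44695002 counts per library. Rtf2 was lower in RTF2-deficient MEFs of both lines, the fitted log2 fold change being -3.01 (edgeR, adjusted p = 2.45e-11). WT line 2 expressed Ddx3y, a Y-linked gene, at 91.8 to 107 CPM (read counts scaled to library size, normalized by TMM) and Xist, expressed from an inactive X, at up to 0.132 CPM. The other 3 groups held Xist at 103 CPM or more and Ddx3y at up to 0.195 CPM, so in line 2 the genotypes also differ by embryo sex and the effects of both cannot be told apart. Fibroblast markers summed to between 19143 and 31714 CPM, although Dcn and Lum stayed at or below 2.10 CPM. Of 8 blood and immune markers, Cd3e was at 0 in every library and Ptprc reached at most 0.122 CPM, whereas the macrophage markers Cd68 and Csf1r reached 8.95 and 1.83 CPM. In these bulk samples, fewer cells that express a gene and less RNA per cell cannot be told apart.

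Interferon-stimulated genes were highest in 1 library of each genotype, both of line 2. The summed level of 20 such genes was 8952 CPM in WT line 2 replicate 1, against 921 and 2559 CPM in replicates 2 and 3 of that group. In RTF2-deficient line 2 it was 3689 CPM in replicate 3, against 391 and 596 CPM in replicates 1 and 2. The groups of line 1 lay lower, at 752, 334 and 342 CPM in WT line 1 and at 419, 375 and 335 CPM in RTF2-deficient line 1. The 9 class I genes moved with them. Their summed level was 3733, 909 and 1507 CPM in replicates 1, 2 and 3 of WT line 2 and 515, 631 and 1652 CPM in those of RTF2-deficient line 2, whereas the 6 libraries of line 1 lay between 487 and 776 CPM. Each of the 9 was highest of all 12 libraries in WT line 2 replicate 1, where 19.3% of all genes tested had their highest value. Tests of the 9 genes that changed without 1 of these libraries are given with and without it.

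Upstream sequences were searched for letters of elements through which interferon and NF-kB signals are known to reach class I genes. Some of the genes searched showed them and others did not. RefSeq promoter windows of GRCm38 were given for 7 of the 9 genes, with no entry used for Tap2 and Nlrc5, and the 250 bases before the start that each window is built on were searched on both strands. For H2-K1 and Erap1 that start lies inside the annotated gene, so the start of another transcript is upstream of it, and all 250 bases of the windows of Erap1, Tapbp, Tap1 and H2-D1 fall in exons of GENCODE transcripts. The upstream sequence of H2-K1 (chr17:34000348-34000597, minus strand) and that of B2m (chr2:122147437-122147685, plus strand) are shown because these genes encode the 2 chains of one molecule. Capitals mark letters of an NF-kB site (GGGATTCC), of an interferon-stimulated response element (ISRE, searched as GAAANNGAA or GAANNGAAA) or of a Y box (CCAAT).
H2-K1: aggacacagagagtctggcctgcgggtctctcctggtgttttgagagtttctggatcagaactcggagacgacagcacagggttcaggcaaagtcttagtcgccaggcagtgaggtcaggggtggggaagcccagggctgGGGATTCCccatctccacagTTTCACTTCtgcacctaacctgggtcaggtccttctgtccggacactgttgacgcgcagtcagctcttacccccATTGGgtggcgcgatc
B2m: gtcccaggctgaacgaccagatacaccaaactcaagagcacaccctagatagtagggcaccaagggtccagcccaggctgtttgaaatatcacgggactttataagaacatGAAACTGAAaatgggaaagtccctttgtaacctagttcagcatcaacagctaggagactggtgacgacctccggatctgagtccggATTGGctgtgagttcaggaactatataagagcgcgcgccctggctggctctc

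H2-K1 and H2-D1 shared the same pair of elements in the same order, the NF-kB letters followed by ISRE letters on the other strand. Stretches of 30 bases around the sites are shown to compare the 2 genes, with the matched letters in capitals; that of H2-D1 lies at chr17:35262913-35262942 for the NF-kB letters and at chr17:35262934-35262963 for the ISRE letters, on the plus strand.
H2-K1 NF-kB: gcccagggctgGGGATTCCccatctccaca
H2-D1 NF-kB: gcccagggctgGGGATTCCccatctcctca
H2-K1 ISRE: atctccacagTTTCACTTCtgcacctaacc
H2-D1 ISRE: atctcctcagTTTCACTTCtgcacctaacc

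H2-T23 and Erap1 carried the first form of the ISRE letters, GAAANNGAA, as did B2m. The stretch of H2-T23 lies at chr17:36032805-36032834 on the minus strand and that of Erap1 at chr13:74639834-74639863 on the plus strand.
H2-T23 ISRE: tcctactgctTTCTCTTTCataaagacaca
Erap1 ISRE: ccggtccaccTTCACTTTCactttcggtcc

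The NF-kB letters occurred in 2 of the 7 genes with a window, H2-K1 and H2-D1, and in 0.889% of all 32851 promoter windows. GAAANNGAA occurred in 3 of 7 and in 7.13% of all windows. GAANNGAAA, searched after the sequences had been seen, occurred in 2 of 7 and in 6.31%. Letters of the Y box stood in 6 of 7, all but Erap1, and in 33.8% of windows. TGACGT, part of the X2 element, was found in none of the 7 windows, against 6.47% of all windows. No ISRE letters were found in the windows of Tap1 and Tapbp. The 2 ISRE forms overlap where both repeats are complete, and a match to such letters describes the sequence and not a bound site.

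**Figure D1:**
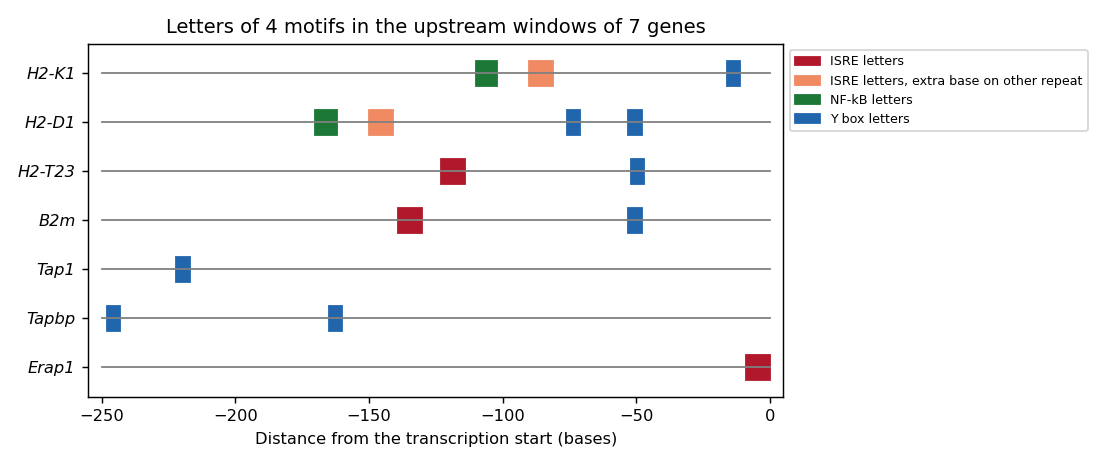
Positions of the searched letters in the 250 bases before the start of the RefSeq promoter window of 7 genes, with distance from the start in bases on the x axis, 1 row per gene and 1 box per match on either strand. H2-K1 and H2-D1 carry NF-kB and ISRE letters side by side, H2-T23, B2m and Erap1 carry the other ISRE form, and Tap1 and Tapbp have Y box letters alone.

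H2-K1 (Entrez 14972, chr17:33996012-34000619) encodes the K chain, one of the classical molecules that present to cytotoxic T cells. It stood at 31.3, 16.7 and 22.03 CPM in replicates 1, 2 and 3 of WT line 1 and at 24.4, 16.3 and 21.5 CPM in those of RTF2-deficient line 1. In line 2 it reached 416, 49.5 and 121 CPM in WT and 21.3, 32.9 and 109 CPM in RTF2-deficient MEFs. The genotypes overlapped in both lines, and the 3 WT libraries of line 2 lay above those of WT line 1. The log2 fold change of RTF2-deficient against WT MEFs was -0.17 in line 1 (95% interval -1.76 to 1.42) and -1.84 in line 2 (95% interval -3.45 to -0.23, edgeR adjusted p = 0.129).

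H2-D1 (Entrez 14964, chr17:35263094-35267497) encodes the D chain, also a classical molecule. It stood at 86.9, 58.5 and 60.4 CPM in WT line 1, at 70.5, 59.1 and 57.1 CPM in RTF2-deficient line 1, at 625, 155 and 264 CPM in WT line 2 and at 79.4, 98.9 and 254 CPM in RTF2-deficient line 2. Both genotypes were higher in line 2 than in line 1 with no overlap of libraries. H2-T23 (Entrez 15040, chr17:36029977-36032701) encodes Qa-1, a nonclassical molecule read by receptors of natural killer cells. It stood at 9.55, 5.97 and 6.18 CPM in WT line 1, 7.47, 5.08 and 4.97 CPM in RTF2-deficient line 1, 57.6, 12.04 and 17.7 CPM in WT line 2 and 9.29, 8.08 and 22.3 CPM in RTF2-deficient line 2. H2-T23 thus showed the same separation of the lines in both genotypes, and the same overlap of the genotypes within each line.

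B2m (Entrez 12010, chr2:122147687-122153082) encodes β2-microglobulin, the light chain needed by all these heavy chains. It stood at 467, 328 and 330.3 CPM in WT line 1 and at 369, 313 and 305 CPM in RTF2-deficient line 1. In line 2 it stood at 1698, 487 and 751 CPM in WT and at 294, 348 and 830.4 CPM in RTF2-deficient MEFs. RTF2-deficient line 2 thus held both the lowest B2m value of the 12 libraries, in replicate 1, and the next to highest, in replicate 3.

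Tap1 (Entrez 21354, chr17:34187556-34197225) and Tap2 (Entrez 21355, chr17:34204479-34216321) encode the subunits of the peptide transporter. Tap1 stood at 35.7, 14.5 and 16.3 CPM in WT line 1, 24.3, 15.7 and 16.1 CPM in RTF2-deficient line 1, 183, 34.2 and 64.2 CPM in WT line 2 and 17.97, 21.8 and 80.0 CPM in RTF2-deficient line 2. Tap2 stood at 10.5, 6.24 and 6.08 CPM in WT line 1, 6.78, 5.59 and 4.75 CPM in RTF2-deficient line 1, 59.4, 15.2 and 23.4 CPM in WT line 2 and 5.63, 7.49 and 21.7 CPM in RTF2-deficient line 2. The WT lines overlapped in Tap1, where WT line 1 replicate 1 lay above WT line 2 replicate 2, and did not overlap in Tap2.

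Tapbp (Entrez 21356, chr17:33919478-33929290) encodes tapasin, which bridges the transporter and the heavy chain. It stood at 97.7, 57.2 and 49.9 CPM in WT line 1, 83.2, 59.9 and 52.9 CPM in RTF2-deficient line 1, 546, 112 and 196 CPM in WT line 2 and 57.2, 75.9 and 248 CPM in RTF2-deficient line 2. Erap1 (Entrez 80898, chr13:74639573-74693205) trims peptides in the endoplasmic reticulum. It stood at 34.6, 30.3 and 26.9 CPM in WT line 1, 28.3, 31.1 and 24.4 CPM in RTF2-deficient line 1, 93.1, 42.2 and 59.4 CPM in WT line 2 and 30.6, 36.5 and 75.02 CPM in RTF2-deficient line 2. Erap1 varied least of the 9, with a highest value 3.82 times its lowest.

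Nlrc5 (Entrez 434341, chr8:94434335-94527272), the transactivator, varied most, with a highest value 321 times its lowest. It stood at 2.77, 0.396 and 0.748 CPM in WT line 1 and at 1.07, 0.172 and 0.219 CPM in RTF2-deficient line 1. In WT line 2 it reached 55.1, 2.47 and 10.6 CPM and in RTF2-deficient line 2 0.337, 0.847 and 10.7 CPM. The lowest of these values rests on 7 counts and the highest on 2536 counts, so the low libraries have wide counting error. The ratios of highest to lowest of the other 7 genes were 25.6 for H2-K1, 12.6 for Tap1, 12.5 for Tap2, 11.6 for H2-T23, 10.9 for H2-D1 and Tapbp and 5.78 for B2m.

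**Figure D2:**
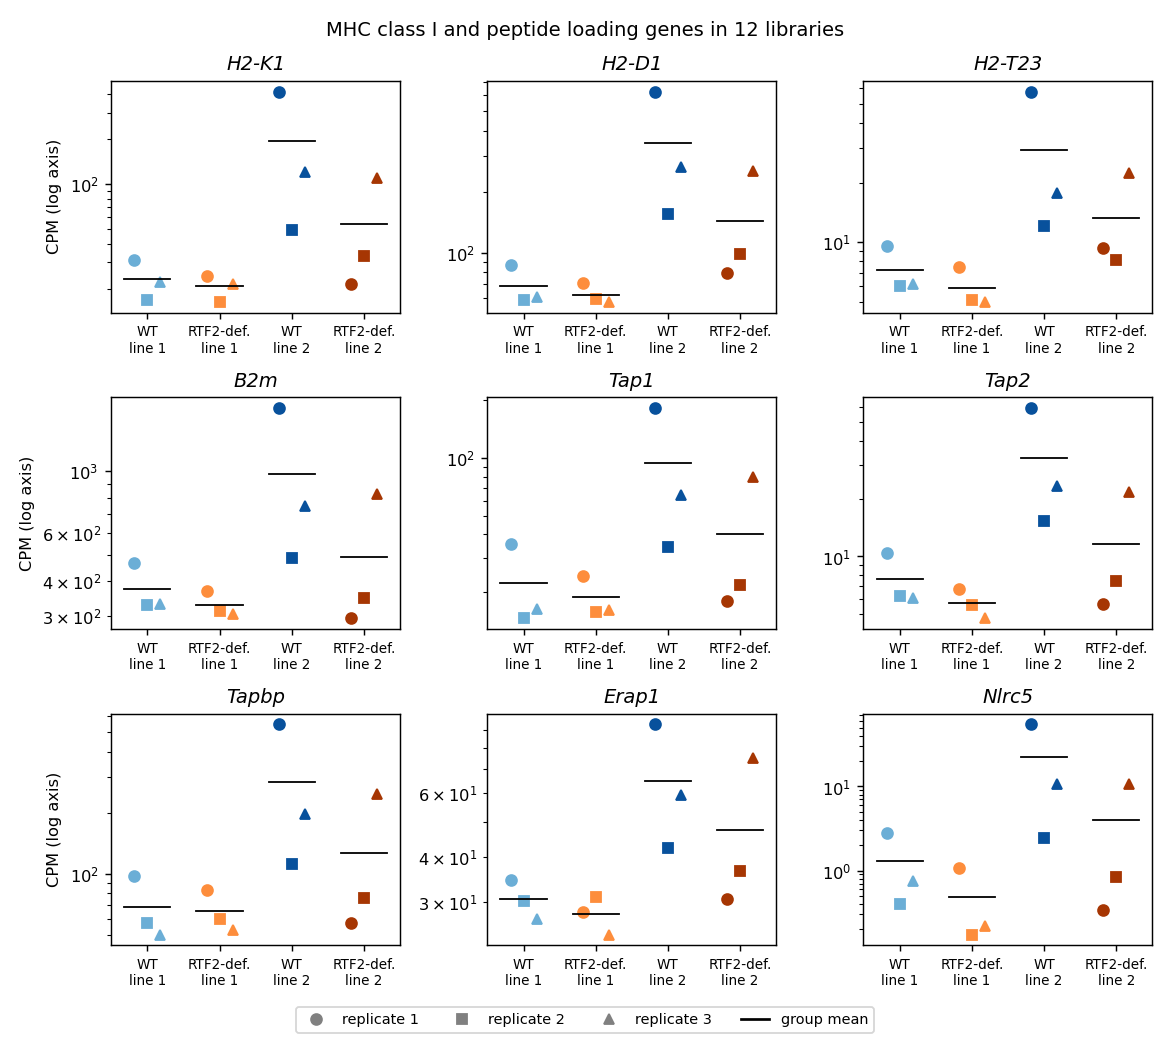
CPM of each of the 9 genes (log axis) in the 4 groups, with 1 point per library, its shape giving the replicate number, and a line at the group mean. WT line 2 replicate 1 is the highest point in all panels and RTF2-deficient line 2 replicate 3 the highest of its group, while the 6 libraries of line 1 lie close together except for Nlrc5.

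Per kilobase of the longest annotated transcript, B2m was the most abundant of the 9 in each group, at 436 ± 92.7 CPM per kb (SD, n = 3) in WT line 1. H2-D1 followed at 32.6 ± 7.55 and Tapbp at 23.6 ± 8.88 CPM per kb, whose libraries overlapped, and then H2-K1 at 12.5 ± 3.94 CPM per kb. Tap1 at 5.67 ± 3.001 and Erap1 at 5.42 ± 0.680 CPM per kb did not differ beyond their spread, nor did H2-T23 at 2.74 ± 0.762 and Tap2 at 2.21 ± 0.722 CPM per kb. Nlrc5 was lowest, at 0.172 ± 0.169 CPM per kb. In WT line 2 the level of H2-K1, 104 ± 104 CPM per kb, came close to that of Tapbp, 98.2 ± 79.5 CPM per kb, and the SD of H2-K1 was as large as its mean.

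The first comparison asked whether RTF2-deficient MEFs differed from WT MEFs over both lines. All 9 genes had a fitted level below that of WT, with log2 fold changes of -1.02 for H2-K1, -0.71 for H2-D1, -0.74 for H2-T23, -0.59 for B2m, -0.74 for Tap1, -0.97 for Tap2, -0.62 for Tapbp, -0.30 for Erap1 and -2.08 for Nlrc5. None passed the test (edgeR quasi-likelihood, adjusted p from 0.151 to 0.427), and DESeq2 called none either. Of all genes tested edgeR called 13.2% and DESeq2 18.7% of those it gave an adjusted p. The unadjusted p was under 0.05 for 1 of the 9, Tap2, against 28.5% of all genes. The median of the 9 was -0.74, against 0.00 for all genes. Without WT line 2 replicate 1 the 9 values lay between -1.05 and -0.11, without RTF2-deficient line 2 replicate 3 between -3.21 and -0.48, and none was called in either fit, against 12.1% and 13.7% of all genes. The 6 libraries of each genotype overlapped for all 9 genes, whereas 5.97% of all genes showed no overlap.

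Within line 1, log2 fold changes lay between -0.06 for Tapbp and -1.41 for Nlrc5, and none of the 9 passed the test, against 3.20% of all genes. No unadjusted p was under 0.05, against 13.9% of all genes, DESeq2 called none, against 5.72%, and the genotypes overlapped for all 9 (21.1% of all genes did not overlap). Libraries of equal number deviated together in this line, so the replicate number was also fitted as a replicate block in line 1 alone, an alternative chosen after the data were seen. With that block 4 of the 9 were lower in RTF2-deficient MEFs, at a background of 29.1% of all genes called. These were Nlrc5 with a log2 fold change of -1.44 (edgeR adjusted p = 0.00353), Tap2 with -0.39 (0.0301), H2-T23 with -0.31 (0.0337) and B2m with -0.18 (0.0402). The other 5 genes had log2 fold changes between -0.18 and -0.03 in that fit. Without WT line 1 replicate 1, and without the block, H2-K1, H2-D1, B2m, Tap1 and Tapbp had values above 0, of at most 0.30 for Tapbp. Interferon-stimulated genes moved alongside, with 18 of 20 below 0 in line 1 in the fit without the block and none called, and their part in the result was not tested.

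Within line 2, log2 fold changes lay between -0.45 for Erap1 and -2.51 for Nlrc5. None of the 9 passed the test, against 12.5% of all genes, while the unadjusted p was under 0.05 for 3 of them, H2-K1, H2-D1 and Tap2, against 27.8% of all genes, and DESeq2 called none, against 18.4%. The genotypes overlapped for all 9 (29.5% of all genes did not overlap), since RTF2-deficient line 2 replicate 3 lay above WT line 2 replicate 2 in each. Without RTF2-deficient line 2 replicate 3, 8 of the 9 were called lower, at a background of 16.4% of all genes. H2-K1 then had a log2 fold change of -2.83 (edgeR adjusted p = 0.0302), H2-D1 -1.94 (0.0227), Tap2 -2.30 (0.0166), Nlrc5 -5.24 (0.0366) and Erap1 -0.94 (0.0421), and the exception, H2-T23, had -1.72 (0.0650). Without WT line 2 replicate 1, none was called, against 10.4% of all genes, and the log2 fold changes shrank to between -0.73 for Tap2 and -0.10 for Erap1. The size of the difference in line 2 moved most with these 2 libraries. The 20 interferon-stimulated genes lay below 0 in line 2 as well, with a median of -1.62. Without WT line 2 replicate 1 their median in line 2 was -0.36, their highest value was 0.77 for Irgm1, and none was called. Cd68, a macrophage marker, was lower in RTF2-deficient MEFs of line 2 by a log2 fold change of -1.07 (edgeR adjusted p = 0.00809), while Csf1r, also found on macrophages, had 0.76 (adjusted p = 0.187). Without RTF2-deficient line 2 replicate 3, 16 of the 20 interferon-stimulated genes were called lower, with a median of -4.10, beside the 8 class I genes. Their part in the result was not tested.

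**Figure D3:**
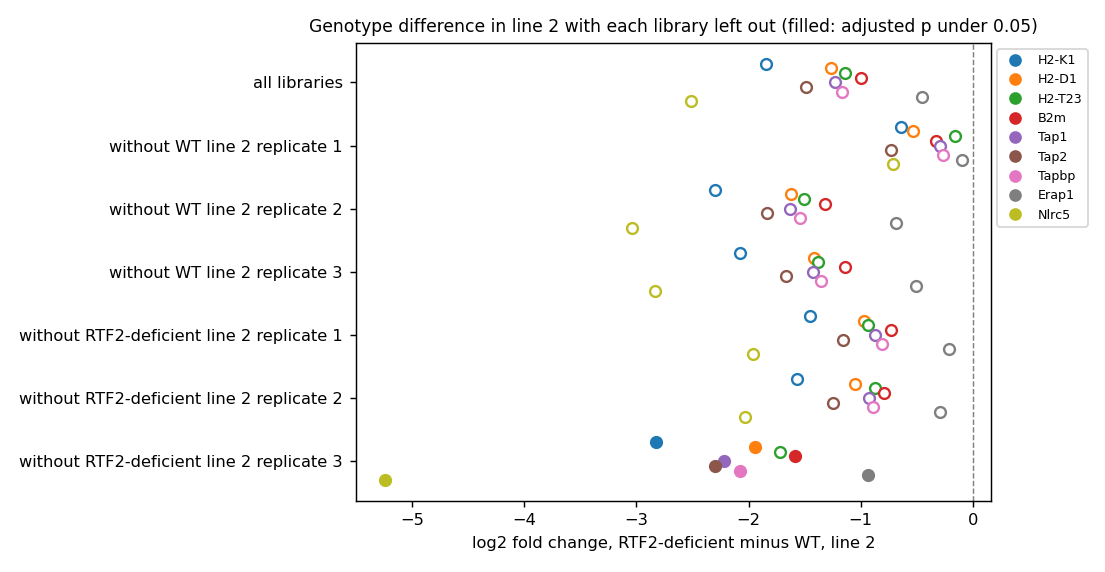
Log2 fold change of RTF2-deficient against WT MEFs in line 2 for each of the 9 genes (colours), with all libraries and with each library of that line left out in turn, filled where the edgeR adjusted p was under 0.05. The fold changes lie nearest 0 without WT line 2 replicate 1, and 8 of 9 are filled without RTF2-deficient line 2 replicate 3.

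The genotype difference itself did not differ detectably between the lines. The difference of the log2 fold changes, line 2 minus line 1, lay between -1.67 for H2-K1 and -0.32 for Erap1, and none of the 9 passed the test (edgeR adjusted p of at least 0.804, no unadjusted p under 0.05, none by DESeq2), against 1.29% of all genes by edgeR, 8.49% at an unadjusted p under 0.05 and 2.53% by DESeq2. Without WT line 2 replicate 1 the difference was -0.47 for H2-K1 and lay above 0 for Nlrc5 (0.69), H2-T23 (0.14) and Erap1 (0.03), and without RTF2-deficient line 2 replicate 3 it was -2.66 for H2-K1 and -3.84 for Nlrc5, with none called in either fit. The 95% interval for H2-K1 ran from -3.91 to 0.58.

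Among WT MEFs, all 9 genes were higher in line 2 than in line 1 by the fitted value, and 4 passed the test. H2-K1 was higher by a log2 fold change of 3.06 (95% interval 1.37 to 4.76, edgeR adjusted p = 0.0227), H2-D1 by 2.34 (1.19 to 3.49, adjusted p = 0.0127), Tap2 by 2.11 (0.86 to 3.36, adjusted p = 0.0318) and H2-T23 by 2.01 (0.77 to 3.25, adjusted p = 0.0373). Of all genes tested 14.0% were called and 6.70% were called higher in line 2. B2m at 1.38, Tap1 at 2.08, Tapbp at 2.06, Erap1 at 1.09 and Nlrc5 at 4.12 missed the threshold, with adjusted p from 0.0556 to 0.0785. DESeq2 called 8, all but B2m, against 17.1% of all genes. The WT lines did not overlap for 7 of the 9, all but Tap1 and Nlrc5, against 30.2% of all genes. Replicate numbers paired the WT libraries as well, and in a fit of the WT libraries alone with the replicate block all 9 were called higher, at a background of 17.6% of all genes. That fit was chosen after the data were seen.

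The number of genes called between the WT lines depended on single libraries. Without WT line 2 replicate 1 only H2-D1 was called, with a log2 fold change of 1.59 (edgeR adjusted p = 0.0410), at a background of 9.76% of all genes, and the other 8 lay between 0.71 and 2.30. Leaving out replicate 1, 2 or 3 of WT line 1 left 2, 0 and 1 of the 9 called, against 9.99%, 8.69% and 10.9% of all genes. Leaving out WT line 2 replicate 2 or RTF2-deficient line 2 replicate 3 gave 9 of 9, against 15.2% and 15.4%. Cd68 was higher in WT line 2 too, at 5.18 to 8.95 CPM against 1.44 to 1.86 CPM in WT line 1, while Csf1r had a log2 fold change of -0.52 (edgeR adjusted p = 0.376). The blood and immune markers summed to 6.72 to 10.3 CPM in WT line 2, 2.55 to 3.77 CPM in WT line 1, 2.99 to 3.24 CPM in RTF2-deficient line 1 and 4.97 to 5.26 CPM in RTF2-deficient line 2. Besides Cd3e at 0, Ptprc, which marks all leukocytes, stayed near 0, and the part of Cd68-positive cells in the difference was not tested. Of 10 fibroblast markers Pdgfrb, Col1a2 and Thy1 were lower in WT line 2, with log2 fold changes of -0.94, -0.63 and -0.62, and 4 of the 10 had values above 0, of which Lum at 1.41 and Pdgfra at 1.28 were the largest and were not called. Endothelial markers summed to 10.7 to 21.6 CPM over the 12 libraries, carried by Kdr and Tek with Pecam1 at up to 0.113 CPM, and epithelial markers to 0.564 to 4.17 CPM, with none of either list called between the WT lines. Kdr was called higher in RTF2-deficient MEFs over both lines, with a log2 fold change of 0.58 (edgeR adjusted p = 0.0492), and missed the threshold without WT line 2 replicate 1 (0.57, adjusted p = 0.0803). That is 1 of 2 endothelial markers tested, beside 13.2% of all genes called. The other, Tek, had -0.03 over both lines and -0.75 within line 2, while both lay above 0 within line 1. Line, embryo sex and the libraries high in interferon-stimulated genes cannot be told apart in this comparison.

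Among RTF2-deficient MEFs the 9 genes again lay higher in line 2, with log2 fold changes between 0.58 for B2m and 3.01 for Nlrc5. None passed the test, against 1.94% of all genes, with an unadjusted p under 0.05 for 2, H2-D1 and Erap1, against 13.4%, and none called by DESeq2, against 4.72%. Without RTF2-deficient line 2 replicate 3 the values lay between -0.04 for B2m and 0.56 for H2-T23. H2-D1 and H2-T23 did not overlap between the lines, against 19.8% of all genes. The comparisons share groups of libraries, so the effects of line and of genotype are not independent of each other.

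**Figure D4:**
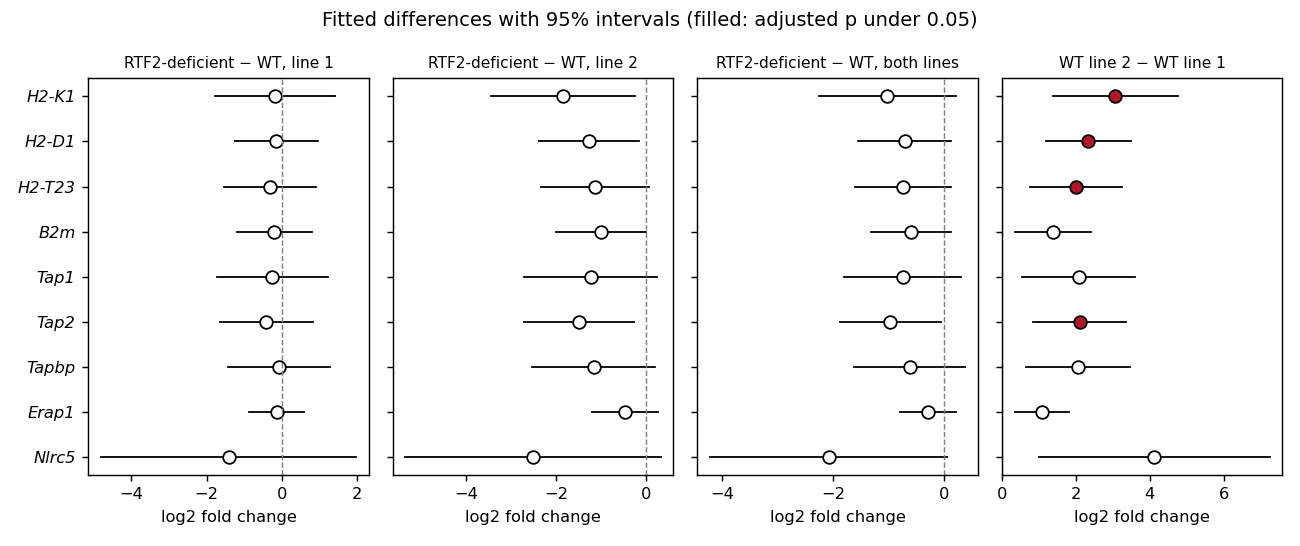
Fitted log2 fold changes of the 9 genes (points) with 95% intervals (lines) for RTF2-deficient against WT MEFs in line 1, line 2 and both lines and for WT line 2 against WT line 1, filled where the edgeR adjusted p was under 0.05. The 9 points lie below 0 in each genotype panel and above 0 between the WT lines, where H2-K1, H2-D1, H2-T23 and Tap2 are filled.

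Within each group nearly all members had their highest value in the same library. In WT line 1 all 9 were highest in replicate 1, as were 38.1% of all genes, and in RTF2-deficient line 1 replicate 1 was highest for 8 of 9, all but Erap1, and for 40.3% of all genes. In RTF2-deficient line 2 all 9 were highest in replicate 3, as were 42.8% of all genes. In each group that library also had the highest sum of interferon-stimulated genes. Tap1 and Tapbp kept the steadiest ratio to each other, with an SD of 0.15 in their log2 ratio over the 12 libraries, and Nlrc5 and Erap1 the least steady, with 1.90. The spread between libraries of a group, as edgeR's coefficient of variation, was 28.8% for Erap1, 38.1% for B2m, between 41.8% and 58.2% for the heavy chains, transporter and Tapbp and 103% for Nlrc5, against a median of 13.8% over all genes.

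**Figure D5:**
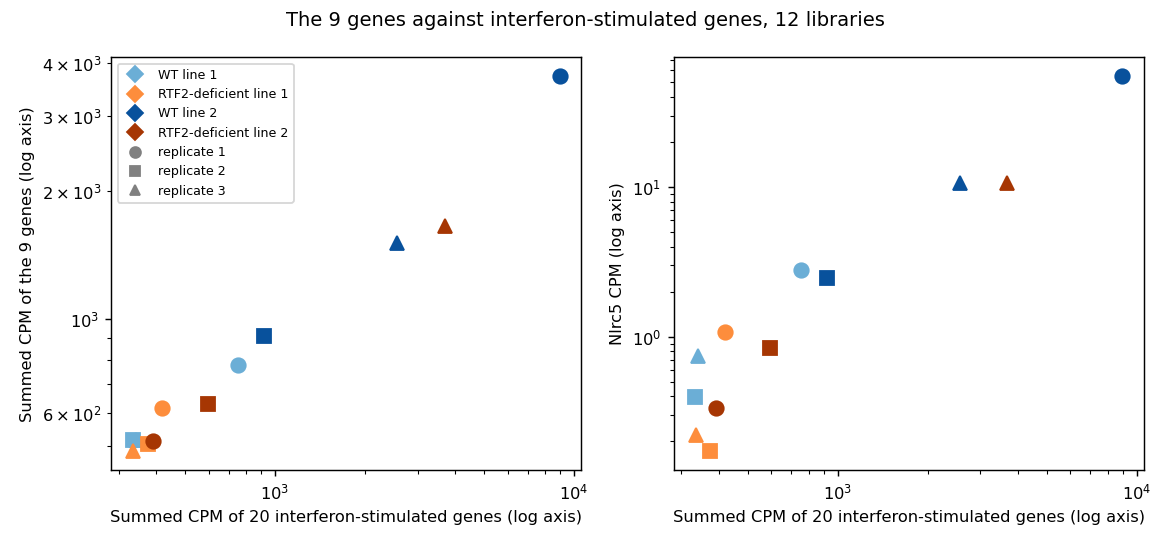
Summed CPM of the 9 genes (left) and CPM of Nlrc5 (right) against the summed CPM of 20 interferon-stimulated genes in the 12 libraries, all on log axes, with colour for the group and shape for the replicate number. WT line 2 replicate 1 is at the top right with 3733 CPM for the 9 genes and 8952 CPM for the interferon-stimulated genes, followed by RTF2-deficient line 2 replicate 3 and WT line 2 replicate 3.

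The genes most like each member were named from 12231 genes by the smallest SD of the log2 ratio over the 12 libraries. For H2-K1 they were H2-Q4, Tor3a and Dtx3l, with SDs of 0.20, 0.24 and 0.28 against an SD of 1.43 for H2-K1 itself. For H2-D1 they were Hfe, Ly6e and Slfn9, each with an SD of 0.25, and for H2-T23 they were Ly6e, Psmb10 and Herc6, with 0.22, 0.26 and 0.27. B2m was followed most closely by Trex1, with 0.11, then by Plekhn1 and Adar, with 0.14 and 0.15. Tap1 was nearest to Ifi35, Trim12a and Herc6 (0.20 to 0.22), Tap2 to Ifi35, Tmem140 and Nmi (0.19 to 0.21) and Tapbp to Herc6, Eif2ak2 and Ifi35 (0.19 to 0.23). Nlrc5 was nearest to Igtp, Ifi27l2a and Lgals3bp, at 0.45 to 0.48, and Erap1 to H2-T22, Zc3hav1 and Mov10, each at 0.18. The 12 libraries share lines and groups, so these values describe likeness in this set alone.

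Other class I heavy chain genes were described in the same way. Of 17 such genes that had been counted, 8 were tested, and over both lines 1 was called lower, Mr1, which encodes a molecule that presents vitamin metabolites, with a log2 fold change of -0.67 (edgeR adjusted p = 0.0444). This is 1 of 8 beside 13.2% of all genes, and without WT line 2 replicate 1 Mr1 had -0.56 and was not called (adjusted p = 0.0829). In that fit H2-T24 was called instead, higher in RTF2-deficient MEFs by 0.74 (adjusted p = 0.0287), which is again 1 of 8, beside 12.1% of all genes. Mr1 stood at 7.02 to 10.2 CPM in WT line 1, 4.32 to 8.07 CPM in RTF2-deficient line 1, 9.90 to 14.5 CPM in WT line 2 and 4.98 to 8.41 CPM in RTF2-deficient line 2. None of the 8 was called within line 1 or line 2, where 0 and 4 had an unadjusted p under 0.05, beside 13.9% and 27.8% of all genes. Between the WT lines H2-Q7 was higher by 4.60 (adjusted p = 0.0226) and H2-Q4 by 3.23 (adjusted p = 0.0167), and none was called lower, beside 14.0% of all genes called. Neither was called without WT line 2 replicate 1, with H2-Q7 at 2.47 (adjusted p = 0.0906) and H2-Q4 at 2.08 (adjusted p = 0.0589).

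Loading chaperones also serve other glycoproteins. None of 6 was called in any of the comparisons with all libraries, and over both lines, where 13.2% of all genes were called, 2 of 6 had an unadjusted p under 0.05, beside 28.5% of all genes. Uggt1 was called higher over both lines when WT line 2 replicate 1 was left out, with 0.27 (edgeR adjusted p = 0.00646), and without RTF2-deficient line 2 replicate 3 Tapbpl was called lower within line 2, with -0.88 (adjusted p = 0.0404), and higher in WT line 2, with 0.78 (adjusted p = 0.0389). Calr, which encodes calreticulin, stood between 1298 and 1613 CPM over all libraries and Pdia3, its disulfide isomerase partner, between 1282 and 1522 CPM. Over both lines their log2 fold changes were 0.05 (95% interval -0.10 to 0.21) and 0.04 (-0.09 to 0.17).

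The inducible subunits of the immunoproteasome were higher in WT line 2 than in WT line 1, Psmb9 by 4.33 (edgeR adjusted p = 0.0307), Psmb8 by 3.81 (adjusted p = 0.0428) and Psmb10 by 1.72 (adjusted p = 0.0348), and Psme2 of the proteasome activator was the other gene called among 14. That is 4 of 14, all higher, beside 14.0% of all genes called and 6.70% called higher. None of the 14 was called in this comparison without WT line 2 replicate 1, with Psmb9 at 2.74, Psmb8 at 2.41 and Psmb10 at 0.84. Over both lines 2 of 14 were called, both higher in RTF2-deficient MEFs and both cytosolic peptidases, Npepps with a log2 fold change of 0.24 (adjusted p = 0.0494) and Tpp2 with 0.23 (adjusted p = 0.0175). That count is near the 13.2% of all genes called, and Npepps missed the threshold without WT line 2 replicate 1 (adjusted p = 0.0810). The count in that fit was again 2 of 14, both higher, Tpp2 with 0.24 (adjusted p = 0.0231) and Lnpep, an endosomal aminopeptidase, with 0.41 (adjusted p = 0.0190). Ide, which encodes a further peptidase, was higher in RTF2-deficient line 2 than in WT line 2 by 0.35 (adjusted p = 0.0142) and than in RTF2-deficient line 1 by 0.39 (adjusted p = 0.0285). None was called in line 1, with 1 at an unadjusted p under 0.05, beside 13.9% of all genes.

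Of 13 transcription factors and coactivators of these promoters 12 were tested. Rfx5, a subunit of the factor that binds the X box, was lower in RTF2-deficient line 2 by a log2 fold change of -0.53 (edgeR adjusted p = 0.0397), at 17.2 to 24.05 CPM against 23.3 to 33.8 CPM in WT line 2. It was the single call among the 12 with all libraries, beside 12.5% of all genes called in line 2, and without WT line 2 replicate 1 it had -0.38 and was not called (adjusted p = 0.118). Rela of NF-kB ranged from 73.0 to 90.1 CPM over the 12 libraries, with a log2 fold change of -0.01 over both lines (edgeR adjusted p = 0.896). MHC class II genes were low. Of the 8 counted 4 were tested and none was called in any comparison with all libraries, with at most 1 at an unadjusted p under 0.05. Of all genes, 1.29% to 14.0% were called in these comparisons and 8.49% to 28.5% had an unadjusted p under 0.05. H2-DMb1 reached at most 5.10 CPM and H2-DMa 1.73 CPM, and their coactivator Ciita stayed at or below 0.120 CPM.

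The 20 interferon-stimulated genes all had a fitted level below WT over both lines, with a median log2 fold change of -1.47, and none was called by edgeR or had an unadjusted p under 0.05, against 13.2% and 28.5% of all genes. Over both lines without RTF2-deficient line 2 replicate 3, the median was -2.54, 14 of 20 had an unadjusted p under 0.05 and 2 were called lower, Mx2 with -4.90 (edgeR adjusted p = 0.0465) and Rtp4 with -2.57 (adjusted p = 0.0434), beside 13.7% of all genes called. Over both lines without WT line 2 replicate 1, the median was -0.70, Irgm1 and Cxcl10 had values above 0, of 0.37 and 0.02, and none was called or had an unadjusted p under 0.05. With all libraries Irgm1, a GTPase of cell-autonomous defence, had -0.01 (adjusted p = 0.985) and Bst2, which encodes tetherin, -1.19 (adjusted p = 0.296). Between the WT lines 7 of 20 were called, all higher in line 2, led by Rsad2, which encodes viperin, at 6.72 (adjusted p = 0.0229), Ifit3 at 5.90 (adjusted p = 0.0341) and Mx2 at 5.76 (adjusted p = 0.0496), beside 6.70% of all genes called higher. Without WT line 2 replicate 1, 2 of the 20 were called, Cxcl10 at 4.25 and Ifih1 at 2.79, beside 9.76% of all genes, and the median of the 20 was 2.88. Without RTF2-deficient line 2 replicate 3, 19 of 20 were called higher between the WT lines, with 5 of 9 other heavy chains, 5 of 14 genes of peptide supply and 3 of 12 transcription factors and coactivators, all higher, beside 15.4% of all genes called. Within line 2 that fit called 2 of 9 other heavy chains lower, 4 of 14 genes of peptide supply lower and 3 higher, and 2 of 12 transcription factors and coactivators lower, beside 16.4% of all genes. The 9 other heavy chains of that fit include H2-Q6, which was not tested with all libraries. It had up to 63 counts in WT line 2 and 0 in the other 3 groups, so it passed the filter only through the group where it was high. The counts out of 9 are to be read with that limit. In WT line 2 replicate 1 all 20 interferon-stimulated genes had their highest value of the 12 libraries, as all 9 class I genes did.

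Sequence shared between related genes limits some of these counts. Of all 75-base stretches in the annotated transcripts, the length of a read, 3.10% of those of H2-K1, 5.40% of those of H2-D1 and 5.91% of those of H2-T23 also occur in transcripts of other genes, chiefly H2-Q10, H2-Q1 and Gm7030. The share was 1.10% for Tapbp and 0 for B2m, Tap1, Tap2, Erap1 and Nlrc5. A supplementary figure legend of the study places the mice on a C57BL/6 background, the strain of the reference genome.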

How the data were processed

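RNA of 12 libraries was sequenced as 75-base single reads. The authors deposited whole-number read counts for each gene without normalization, under Entrez numbers. Salmon and tximport with mm10 gene models are described in the study's methods, whereas HTSeq appears in the submitters' processing notes beside mm10, and which of them produced the deposited counts is not settled. The treatment of multi-mapping reads and of strand is not given in the sources used here.

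RefSeq's GRCm38 annotation gave symbols and positions for 24045 of 24100 identifiers, and GENCODE M21 the transcripts and exons. The 14263 genes left by filterByExpr with the 4 groups were scaled by TMM and tested in R 4.3.3 with edgeR 4.0.16 (glmQLFit, glmQLFTest), with terms for line and genotype or, for comparisons of groups, a layout of the 4 groups. P-values were adjusted by Benjamini-Hochberg over all genes tested, and a gene was called at an adjusted p under 0.05. CPM are TMM-normalized, and log2 CPM used a prior count of 2. Intervals are at 95%. Alternatives included DESeq2 1.42.0, other normalizations and filters, a replicate block, summed triplicates and each library left out. The fits were tested on simulated data. Counts limit precision through counting error only, and every pair of libraries within a group differed by more than sampling noise.

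Libraries of equal replicate number deviated together between the genotypes of line 1 (correlations of deviations from group means 0.625, 0.430 and 0.484) and between the WT lines (0.426, 0.415 and 0.305). They did not in line 2 (-0.587, 0.170 and -0.279). The pairing comes from the data, since the labels give a number alone.

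The class I genes and the other lists were chosen with earlier results of these data known. From each list up to 3 called genes with the largest log2 fold change are named per comparison, or the 2 most abundant where none was called. Cd68 and the other markers named with values were chosen after their values were seen. Promoter windows came from RefSeq (GRCm38.p6), and printed sequence stops where a GENCODE exon begins, apart from stretches of 30 bases around a site. Values of some listed genes and motifs are not reported here.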

Additional observations from a re-analysis of the deposited data

Results flagged for a closer look

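Over the 6 libraries of a genotype, 1 library lay far from the others in 19 of 20 sets examined (each of the 9 genes and their sum, in WT and in RTF2-deficient MEFs), by the gap to the nearest library as a share of the range. The rule takes no account of line, and each set pools technical replicates of line 1 and line 2, which differ in level, so no chance rate is given for it. The 20 sets are also not independent, since they share the same libraries. In WT MEFs the library was WT line 2 replicate 1 throughout. There H2-K1 stood at 416 CPM with the next library at 121 CPM, H2-D1 at 625 against 264 CPM, H2-T23 at 57.6 against 17.7 CPM and B2m at 1698 against 751 CPM. Tap1 stood at 183 against 64.2 CPM, Tap2 at 59.4 against 23.4 CPM, Tapbp at 546 against 196 CPM and Nlrc5 at 55.1 against 10.6 CPM, and the sum of the 9 genes was 3733 against 1507 CPM. Erap1 was the exception.

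In RTF2-deficient MEFs the library was RTF2-deficient line 2 replicate 3 throughout. There H2-K1 stood at 109 CPM with the next library at 32.9 CPM, H2-D1 at 254 against 98.9 CPM, H2-T23 at 22.3 against 9.29 CPM and B2m at 830.4 against 369 CPM. Tap1 stood at 80.0 against 24.3 CPM, Tap2 at 21.7 against 7.49 CPM, Tapbp at 248 against 83.2 CPM, Nlrc5 at 10.7 against 1.07 CPM and Erap1 at 75.02 against 36.5 CPM, and the sum was 1652 against 631 CPM.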

How the results depend on the processing

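The count of the 9 genes called stayed at 0 over both lines, for the difference between lines and between the RTF2-deficient lines under every alternative run, including the replicate block over all groups. Between the WT lines 4 were called, against 8 by DESeq2, 9 with the replicate block in WT alone and 0 to 9 with a library left out. In line 2 leaving out a library gave 0 to 8, and in line 1 the replicate block in that line alone gave 4. The replicate block over all 4 groups kept every count, with 4 between the WT lines. H2-T23 missed the threshold with the WT groups fitted alone (edgeR adjusted p = 0.0818). The cause of these changes was not tested. Of single-gene values, 1005 kept their side of the threshold, 33 newly passed it and 15 no longer did, and 11 changed sign, none of them past the threshold in either fit. Counts limit Nlrc5 most, at 7 counts in its lowest library.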
